A study of Mus musculus with 18 samples.

Results

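A set of 10 genes that mouse embryonic stem (ES) cells transcribe was at a small part of its wild type level when the chromatin remodeller Snf2h was missing, from 0.789% in Prss41 to 14.8% in Cgrrf1, or carried a mutated ATPase, where none was above 4.95%. These percentages pool all libraries of a group. Among libraries of like total count alone, the highest were 19.1% in ko (Cgrrf1) and 5.64% in the mutant (Mobp). The 10 genes were Prss41, Magohb, Fggy, Pstpip2, Mtus2, Mobp, Rbm44, Acsf3, Slc4a5 and Cgrrf1, out of 24116 genes in the count table and 14901 genes with enough counts to be tested, and all 10 were among the tested genes. They were chosen by their counts in these libraries, for near loss in the knockout (which Acsf3 and Cgrrf1 met least) and return with wild-type but not with mutant Snf2h. Their levels in those groups are therefore given as a description without a test.

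Polyadenylated RNA was sequenced from ES cells of the 129S6/SvEvTac strain, maintained in serum with leukemia inhibitory factor. The groups were Snf2h ko (ko, n = 5), ko cells with wild-type Snf2h returned (wild-type add-back, n = 3), ko cells with an ATPase-mutant Snf2h returned (mutant add-back, n = 2, replicates 1 and 3) and wild type (n = 8). Both add-backs carry the ko genotype. Plates were gelatin-coated, except that ko and the mutant add-back spent at least the initial passages out of the freezer on mouse fibroblast feeders. The labels name no clones, and they do not say which replicates were separate cultures, so p-values measure the spread between these samples, which may be technical.

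The Smarca5 gene encodes Snf2h, the motor subunit of mammalian ISWI complexes. ISWI enzymes use ATP to slide nucleosomes and to space them evenly along DNA. In ES cells, Snf2h is known for keeping DNA open at binding sites of the insulator protein CTCF.

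Library totals ranged from 15.3 to 36.98 M counts. Expression is given in CPM (counts divided by the TMM-scaled library size in M counts), so that 1 count was worth between 0.0266 and 0.0674 CPM. The libraries fell into 3 sets by total, which are not groups of the study. All add-back libraries, ko replicates 3 to 5 and wild type replicates 6 to 8 were under 20 M counts (11 libraries), replicates 1 and 2 of ko and wild type were between 20 and 28 M, and wild type replicates 3 to 5 were above 28 M. Smarca5 was at 8.71 to 10.1 CPM in ko, 83.8 to 90.2 CPM in the wild-type add-back, 48.4 and 68.6 CPM in the mutant add-back and 139.7 to 215.5 CPM in wild type. All 8 ES cell markers examined, among them Pou5f1 and Nanog, were expressed in every group. The 22 feeder markers summed to 273 to 315 CPM in ko, 94.9 to 99.3 CPM in the wild-type add-back, 311 to 386 CPM in the mutant add-back and 87.0 to 139.4 CPM in wild type. The highest of these markers in ko was Thbs1, at 87.6 CPM in ko and 17.3 CPM in wild type. Others were lower in ko, as Pdgfrb (3.15 CPM, and 5.82 CPM in wild type) and Col6a2 (0.959 and 1.86 CPM). Dcn and Fap had 4 and 3 counts over all ko libraries. Of the markers Lum was at 0 in ko, Lum and Fap in the mutant add-back, and Postn and Fap in the wild-type add-back. The part of feeder RNA, and of these library sets, in the levels below was not tested, except where a value within a set is given.

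The stretch around the transcription start was available from RefSeq (GRCm38.p6, 250 bases before to 50 bases after a start) for 8 of the 10 genes, in 10 windows. A match to the CTCF core, spelled CCNNNAGNNGGC and searched on both strands, was present in a window of Prss41 and in the upstream window of Mtus2. Over all 32851 mouse windows, 8.61% held it. These windows are shown with the match in capitals, and that of Magohb, which holds no match, is set beside them.

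Prss41 (chr17:23844107-23844406, minus strand): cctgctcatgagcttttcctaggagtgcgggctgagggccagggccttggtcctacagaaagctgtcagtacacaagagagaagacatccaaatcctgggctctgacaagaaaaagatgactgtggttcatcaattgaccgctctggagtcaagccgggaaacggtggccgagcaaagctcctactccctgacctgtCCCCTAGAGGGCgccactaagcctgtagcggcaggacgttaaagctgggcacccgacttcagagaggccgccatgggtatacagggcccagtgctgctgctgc
Mtus2 (chr5:147957070-147957369, plus strand): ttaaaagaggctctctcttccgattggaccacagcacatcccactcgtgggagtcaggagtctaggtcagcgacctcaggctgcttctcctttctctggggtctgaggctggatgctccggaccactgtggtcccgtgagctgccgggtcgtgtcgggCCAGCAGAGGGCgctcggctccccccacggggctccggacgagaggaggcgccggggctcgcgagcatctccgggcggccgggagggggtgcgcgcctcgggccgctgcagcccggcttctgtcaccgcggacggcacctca
Magohb (chr6:131293195-131293494, minus strand): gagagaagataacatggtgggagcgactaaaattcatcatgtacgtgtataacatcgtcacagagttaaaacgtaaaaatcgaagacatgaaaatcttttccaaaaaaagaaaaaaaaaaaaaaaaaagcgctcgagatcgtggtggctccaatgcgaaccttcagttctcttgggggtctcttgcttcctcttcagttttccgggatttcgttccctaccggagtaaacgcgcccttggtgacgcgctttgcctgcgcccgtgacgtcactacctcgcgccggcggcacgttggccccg

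The match of Prss41 began 53 bases before the start site and that of Mtus2 began 92 bases before it. A match in letters is not a bound site, and binding was not measured in these files. CpG dinucleotides, which are dense in the promoters of broadly expressed genes, varied widely among the genes. The upstream Mtus2 window had 28 and that of Magohb 25, above the upper quartile of 20 over all windows. Acsf3 had 15, Cgrrf1 13 and Prss41 10, Slc4a5 had 6 and Mobp 5, and the windows of Fggy had 10 and 4, against a median of 7 over all windows. A CCAAT box (CCAAT, either strand) was found in 5 of the 10 windows, of 5 genes, against 37.4% of all windows. A GC box (GGGCGG) was found in 5 of the 10 windows, of 4 genes, against 35.7%. A TATA box (TATAAA) was found in 1 of the 10, that of Slc4a5, against 13.6%. None held the NRF1-like letters GCGCNNGCGC, found in 6.22% of all windows, so no motif searched was common to the genes.

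**Figure D1:**
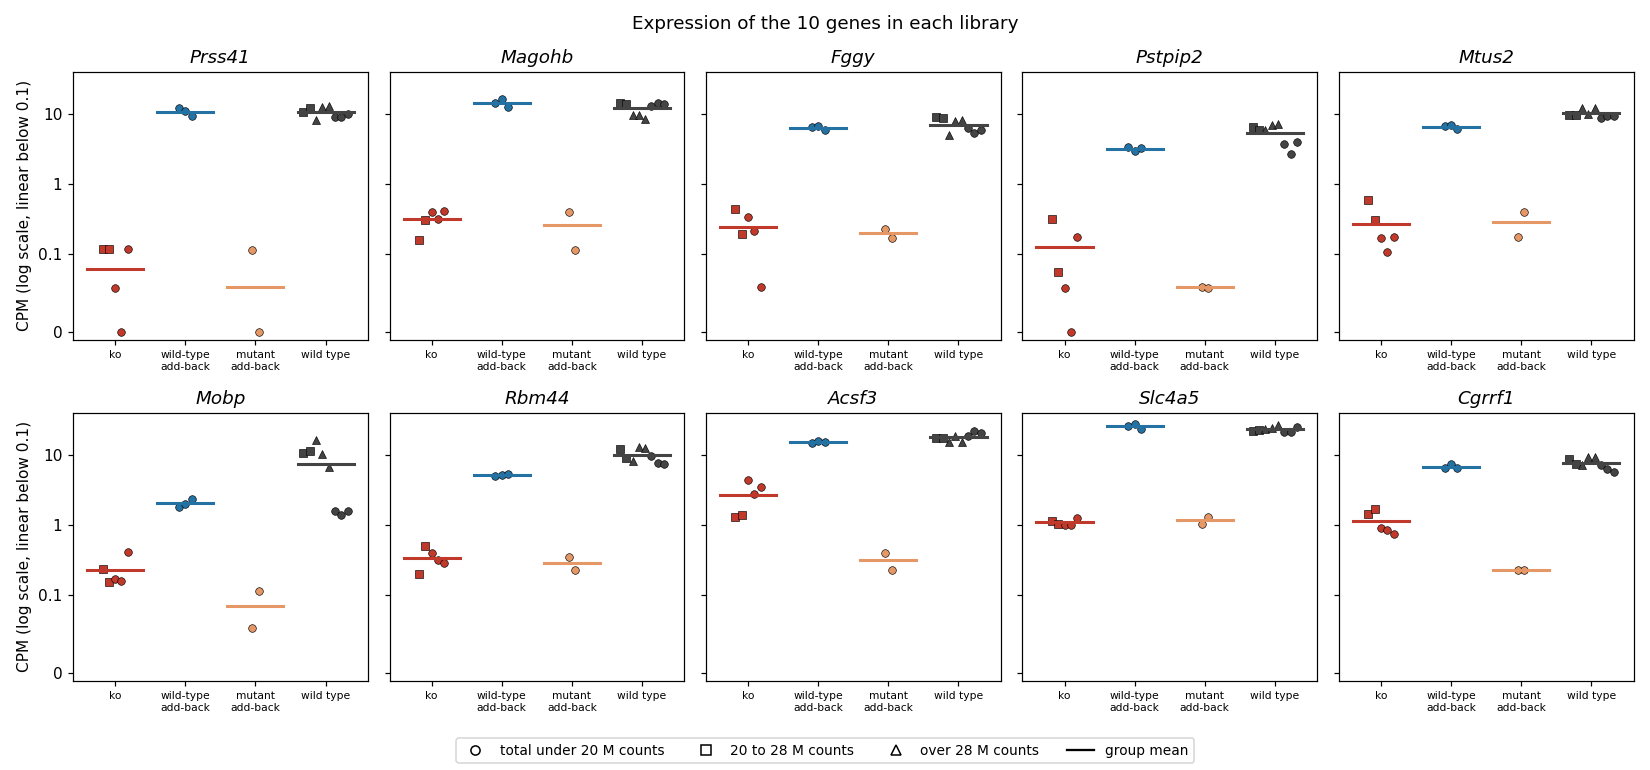
Expression of the 10 genes in CPM (vertical axis, logarithmic and linear below 0.1) in each of the 18 libraries of ko, wild-type add-back, mutant add-back and wild type. Each symbol is a library, its shape giving the total count, lines are group means, and in each gene the ko and mutant add-back points lie below all wild-type add-back and wild type points.

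Prss41 encodes a trypsin-like serine protease and lies on chromosome 17 (chr17:23836785-23844219). It came closest to an all-or-none difference. It had 3, 3, 1, 0 and 2 counts in the ko libraries, which is 0.118, 0.116, 0.0565, 0 and 0.116 CPM. Wild-type add-back libraries had 12.1, 11.1 and 9.23 CPM, the mutant add-back 0.115 and 0 CPM, and wild type from 8.33 through a median of 10.4 to 12.8 CPM. The libraries with active Snf2h thus shared a range, and those without it held at most 3 counts each. Pooled over libraries, ko was at 0.789% of wild type (95% exact interval 0.360 to 1.501) and the mutant add-back at 0.527% (0.0638 to 1.91, from 2 counts). These intervals cover counting error only. In the fit across all genes the log2 change in ko was −6.87 ± 0.29 (SE).

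The next pair of genes act on RNA. Magohb (chr6:131284389-131293244) encodes a near-identical copy of Magoh, a core protein of the exon junction complex that marks spliced mRNA. The ko libraries had 0.157, 0.309, 0.395, 0.318 and 0.407 CPM, from 4 to 8 counts each. The wild-type add-back had 14.4, 16.3 and 12.7 CPM, the mutant add-back 0.402 and 0.114 CPM, and wild type 8.42 to 14.5 CPM with a median of 13.5. The highest library without active Snf2h was 20.7-fold below the lowest library with it. Ko was at 2.62% of wild type (1.79 to 3.70) and the mutant add-back at 2.21% (1.01 to 4.20), and the log2 change in ko was −5.28 ± 0.25. Of the 50-base stretches of Magohb, 26.8% also occur in Gm44958, a transcript annotated over it on the same strand, while 0 of them occur in Magoh. Reads from Magohb and Gm44958 cannot all be told apart.

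Rbm44 (chr1:91144973-91170799) encodes an RNA-binding protein of the intercellular bridges of mouse male germ cells. It had 0.197, 0.502, 0.395, 0.318 and 0.290 CPM in ko and 5.04, 5.10 and 5.39 CPM in the wild-type add-back. The mutant add-back had 0.345 and 0.228 CPM, and wild type 7.46 to 13.2 CPM with a median of 9.39. Here the add-back of the wild-type protein was far above ko in all 3 libraries and yet below all 8 wild type libraries. Ko was at 3.30% of wild type (2.31 to 4.59), the wild-type add-back at 49.9% (43.5 to 57.0) and the mutant add-back at 2.75% (1.32 to 5.08). The log2 change in ko was −4.85 ± 0.23.

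Fggy and Acsf3 encode enzymes of small-molecule metabolism. Fggy (chr4:95557480-95926939), a carbohydrate kinase gene, spans 369460 bases and had 11, 5, 6, 4 and 1 counts in ko, or 0.433, 0.193, 0.339, 0.212 and 0.0581 CPM. The wild-type add-back had 6.45, 6.64 and 5.86 CPM, the mutant add-back 0.230 and 0.171 CPM, and wild type 4.98 to 9.04 CPM with a median of 7.14. The wild-type add-back libraries lay inside the range of wild type. Ko was at 3.58% of wild type (2.35 to 5.23) and the mutant add-back at 2.79% (1.12 to 5.76), with a log2 change in ko of −4.76 ± 0.28.

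Acsf3 (chr8:122775470-122817887) makes malonyl-CoA in mitochondria, and it was the least silent of the set by residual counts. The ko libraries had 1.30, 1.39, 4.35, 2.80 and 3.54 CPM, from 33 to 77 counts each. The wild-type add-back had 14.9, 15.8 and 15.2 CPM, the mutant add-back 0.402 and 0.228 CPM (7 and 4 counts), and wild type 15.2 to 21.7 CPM with a median of 18.3. Every ko library was far below wild type with at least 33 counts left, and both mutant add-back libraries were below all of them. Ko replicates 1 and 2, of the middle totals, were also below the other 3. Ko was at 13.9% of wild type (12.2 to 15.8), at 7.62% (5.87 to 9.75) in the libraries of middle totals and at 17.5% (14.9 to 20.4) in those under 20 M counts, while the mutant add-back was at 1.77% (0.881 to 3.16). The log2 change in ko was −2.80 ± 0.23, and the mutant add-back differed from ko by −3.03 ± 0.51.

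Slc4a5 (chr6:83207580-83304945) encodes a sodium bicarbonate cotransporter and was the steadiest of the set. It had 1.14, 1.04, 1.02, 1.01 and 1.28 CPM in ko, from 18 to 29 counts. With wild-type Snf2h returned it had 25.9, 28.04 and 23.7 CPM, the mutant add-back 1.03 and 1.31 CPM, and wild type 21.0 to 26.9 CPM with a median of 23.2. Its residual values were close to each other in all 7 libraries of ko and mutant add-back. Among wild type libraries the coefficient of variation was 9.01%, the lowest of the 10 genes. Ko was at 4.62% of wild type (3.81 to 5.56) and the mutant add-back at 4.95% (3.55 to 6.73), and the log2 change in ko was −4.41 ± 0.11, with the smallest standard error of the set.

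Pstpip2 and Mtus2 encode proteins that bind the cytoskeleton. Pstpip2 (chr18:77794550-77882879), an F-BAR membrane and actin adaptor whose mutation causes autoinflammatory bone disease in mice, had 8, 2, 1, 0 and 3 counts in ko (0.315, 0.0773, 0.0565, 0 and 0.174 CPM). Wild-type add-back libraries had 3.38, 2.95 and 3.23 CPM, the mutant add-back 0.0574 and 0.0569 CPM (1 count each), and wild type 2.68 to 7.13 CPM with a median of 5.83. The wild-type add-back libraries sat with wild type replicates 6 to 8, which had 3.72, 2.68 and 3.93 CPM, and below the other 5. Ko was at 2.34% of wild type (1.28 to 3.95) and the mutant add-back at 1.01% (0.122 to 3.64, from 2 counts). The log2 change in ko was −5.28 ± 0.40, and −6.04 without ko replicate 1. An antisense transcript, F830208F22Rik, shares 6.86% of its 50-base stretches, and whether the counting used the strand is not given in the sources used here.

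Mtus2 (chr5:147957275-148316065), a microtubule plus-end protein gene, had 0.591, 0.309, 0.169, 0.106 and 0.174 CPM in ko, from 2 to 15 counts. In the wild-type add-back it had 6.77, 6.89 and 6.07 CPM, the mutant add-back 0.172 and 0.398 CPM, and wild type 8.91 to 12.3 CPM with a median of 9.57. The wild-type add-back was below all wild type libraries without overlap. Ko was at 2.83% of wild type (1.92 to 4.03), the wild-type add-back at 63.3% (55.9 to 71.3) and the mutant add-back at 2.75% (1.31 to 5.06). The log2 change in ko was −5.11 ± 0.26 over all libraries, −4.37 in the libraries of middle totals and −5.89 in those under 20 M counts.

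Mobp (chr9:120149742-120181488) encodes a structural protein of myelin, and its wild type level was the least settled. It had 0.236, 0.155, 0.169, 0.159 and 0.407 CPM in ko, 1.79, 1.97 and 2.36 CPM in the wild-type add-back and 0.0574 and 0.114 CPM in the mutant add-back. Wild type replicates 1 to 5 had 10.7, 11.3, 16.4, 10.2 and 6.71 CPM, while replicates 6 to 8 had 1.59, 1.40 and 1.56 CPM. The wild-type add-back thus exceeded the wild type libraries of its own set and lay below all the others. Ko was at 2.55% of wild type (1.61 to 3.84) over all libraries but at 15.9% (8.11 to 28.8) in those under 20 M counts, where the mutant add-back was at 5.64% (1.14 to 17.1, from 3 counts). The log2 change in ko was −5.07 ± 0.71, with −5.76 in the libraries of middle totals and −2.62 in those under 20 M counts.

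Cgrrf1 (chr14:46832134-46854198), a ring finger protein gene, kept a clear residual level in ko. The ko libraries had 1.42, 1.70, 0.903, 0.847 and 0.755 CPM, from 13 to 44 counts. In the wild-type add-back it had 6.58, 7.44 and 6.47 CPM, the mutant add-back 0.230 and 0.228 CPM (4 counts each), and wild type 5.73 to 9.52 CPM with a median of 7.32. As in Acsf3, both mutant add-back libraries were below every ko library, although here ko replicates 1 and 2 were the higher ones. Ko was at 14.8% of wild type (12.3 to 17.8) and the mutant add-back at 2.85% (1.23 to 5.63). In the libraries of middle totals ko was at 19.1% (14.9 to 24.4), and in those under 20 M counts at 13.0% (9.28 to 17.7). The log2 change in ko was −2.75 ± 0.20, and the mutant add-back differed from ko by −2.30 ± 0.43.

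**Figure D2:**
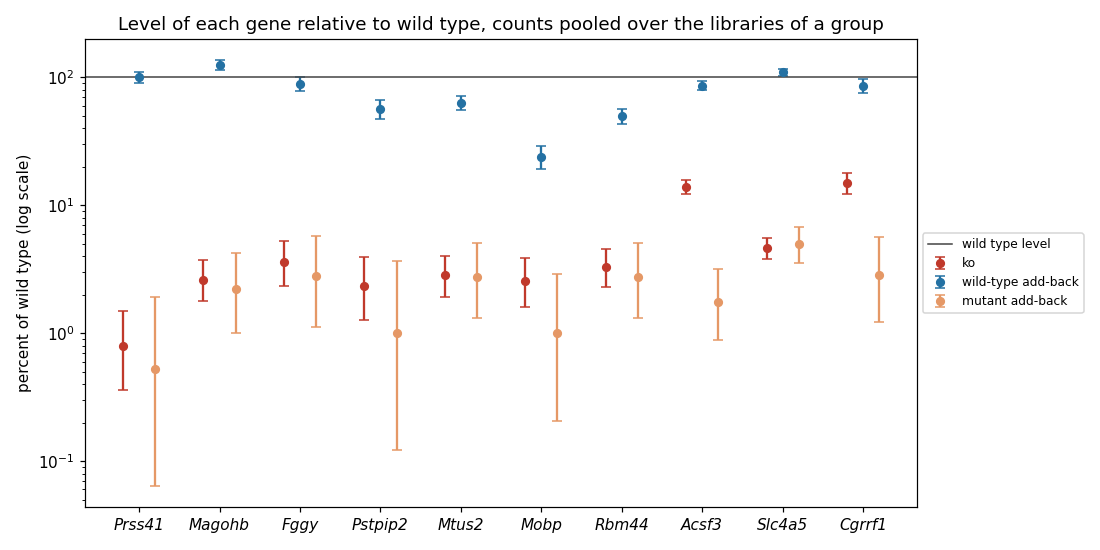
Level of each gene in ko, wild-type add-back and mutant add-back as a percent of wild type (vertical axis, logarithmic), from counts pooled over the libraries of a group, with 95% exact intervals for counting error. The ko and mutant add-back points lie between 0.527% and 4.95% except in Acsf3 and Cgrrf1, where ko is at 13.9% and 14.8% and the mutant add-back at 1.77% and 2.85%.

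Set side by side, the 10 genes showed no overlap between libraries with and without active Snf2h. In all 10 the lowest of the 11 libraries of wild type and wild-type add-back was above the highest of the 7 libraries of ko and mutant add-back, as in 12.1% of all tested genes, a separation that the choice of the genes fixes. The distance across the gap was 70.5-fold for Prss41, 20.7-fold for Magohb, 16.0-fold for Slc4a5, 11.5-fold for Fggy, 10.3-fold for Mtus2, 10.04-fold for Rbm44 and 8.52-fold for Pstpip2. It was 3.45-fold for Mobp, 3.42-fold for Acsf3 and 3.37-fold for Cgrrf1. Complete silence was rare. Of the 70 values of these genes in ko and mutant add-back libraries, 3 were at 0 counts (Prss41 in ko replicate 4 and mutant add-back replicate 3, and Pstpip2 in ko replicate 4), 50 were under 10 counts, the median was 5.5 counts and the highest 77. In the libraries with active Snf2h the counts were 23 to 916. As a yardstick, 22 genes of other organs such as insulin and rhodopsin had a median level of 0.0267 CPM in ko and 0.0197 CPM in wild type. Not all of them were silent, as the highest means were 2.96 CPM in ko (Tshr) and 2.55 CPM in wild type (Cd3e). Cd3e was itself lower in ko, at 0.296 CPM. These are bulk RNA levels, in which a small share of cells at a full level cannot be told apart from a low level in every cell.

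By group means of CPM, 8 of the 10 genes were under 10% of wild type in ko, as were 1.12% of all tested genes (167). In 7 of the 10, the mean CPM of ko and mutant add-back was under 10% of wild type and that of the wild-type add-back over 50%, a pattern held by 93 genes (0.624%), of which 29 had at least 5 CPM in wild type (0.195%). The exceptions were Acsf3 and Cgrrf1, for their level in ko, and Mobp, for its return. Rbm44 was at the limit, at 51.9% by means and 49.9% by pooled counts, on which 6 of the 10 held the pattern, as did 0.617% of all tested genes. The median log2 change of the 10 genes was −4.96 in ko against wild type, with −0.01 over all tested genes. It was 4.51 with the wild-type add-back set against ko and 4.90 when set against the mutant add-back, with −0.01 over all tested genes in each. For the mutant add-back against ko it was −0.43, and −1.04 without mutant add-back replicate 1. These comparisons share ko or add-back libraries. Per kilobase of exon, Magohb had the highest level in wild type and Acsf3 the next, at 15.9 and 4.88 CPM per kilobase by the exon lengths of the deposited table. By GENCODE exon lengths they were at 7.10 and 4.86 CPM per kilobase. Prss41 was at 4.72 and Slc4a5 at 4.47 CPM per kilobase by the table, and by GENCODE lengths at 4.02 and 4.03, and Mtus2 was the lowest by both, at 1.05 and 0.791.

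How far the wild-type add-back came back to wild type is given as a description, without a test, since the choice of the genes drew on the levels of both groups. The log2 change of the wild-type add-back over wild type was lowest in Mobp, at −1.89 ± 0.66 (SE), with all 3 add-back libraries above wild type replicates 6 to 8 and below the other 5. Rbm44 followed at −0.95 ± 0.21, then Pstpip2 at −0.74 ± 0.32 and Mtus2 at −0.63 ± 0.21. Of these genes, Rbm44 and Mtus2 had no overlap between the 3 add-back and the 8 wild type libraries. How often this held over all tested genes was not counted, so it is not read as a trait of the set. In the other 6 genes the log2 change lay between −0.25 and 0.25. Acsf3 was at −0.25 ± 0.24, Cgrrf1 at −0.18 ± 0.20, Fggy at −0.16 ± 0.23, Prss41 at 0.02 ± 0.19, Slc4a5 at 0.15 ± 0.10 and Magohb at 0.25 ± 0.19.

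Within the 11 libraries under 20 M counts, which hold all the add-backs and 3 wild type libraries, the order was different. Rbm44 was the lowest, at −0.67 ± 0.12, followed by Mtus2 at −0.49 ± 0.11 and Acsf3 at −0.41 ± 0.09. In that set Mobp was at 0.42 ± 0.21 and Pstpip2 at −0.12 ± 0.18. As a share of wild type in the set, the wild-type add-back ranged from 62.7% for Rbm44 to 133.7% for Mobp.

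**Figure D3:**
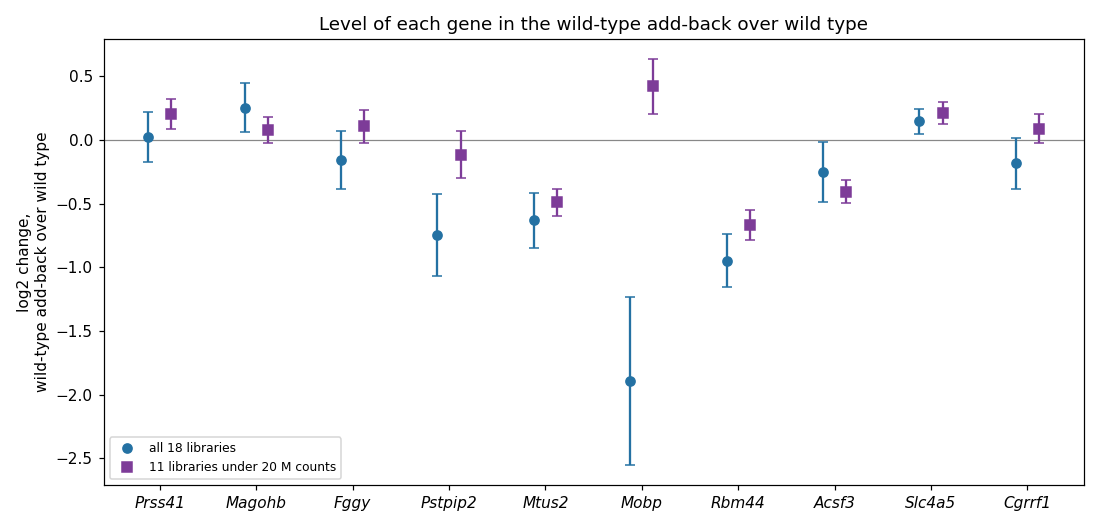
Log2 change of the wild-type add-back over wild type (vertical axis) for each gene, from all 18 libraries (circles) and from the 11 libraries under 20 M counts (squares), with standard errors. Rbm44, Mtus2 and Acsf3 are below 0 by more than a standard error in both, and Mobp moves from −1.89 to 0.42.

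Whether the genes around them moved too was read from the nearest gene with a row in the table on each side. Of these 20 neighbours, 16 could be tested, and 8 were called in ko against wild type, 4 higher and 4 lower, against 55% of all tested genes. Their median log2 change was −0.07, from −3.72 to 1.61. The largest fall among them was that of Cdh15, the muscle cadherin gene 30.5 kb from Acsf3. It had 0.0917 ± 0.0865 CPM in ko (SD, n = 5), 0.773 ± 0.156 CPM in the wild-type add-back (n = 3) and 1.20 ± 0.193 CPM in wild type (n = 8). That is a fall by 3.72 ± 0.35 in ko (edgeR adjusted p = 7.7e-08) and a rise by 3.07 ± 0.44 in the wild-type add-back over ko (adjusted p = 2.2e-05). The mutant add-back had 0.115 and 0.171 CPM, inside the range of ko, where the highest library had 0.226 CPM.

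On the other side of Acsf3, the corepressor gene Cbfa2t3 (76.1 kb) rose in ko by 1.20 ± 0.29 (edgeR adjusted p = 0.0019; 2.01 under 20 M counts). The translational repressor gene Samd4, 28.8 kb from Cgrrf1, rose by 1.61 ± 0.24 (adjusted p = 2.1e-05; 0.66 under 20 M counts), and Mthfd2, a mitochondrial folate enzyme 0.76 kb from Slc4a5, by 0.51 ± 0.08 (adjusted p = 3.3e-05). Set against ko, the wild-type add-back had less of the same 3 genes, with log2 changes of −1.60, −1.40 and −0.46 (adjusted p = 0.0061, 0.0026 and 0.0019). Neighbours thus went both ways beside silenced genes. Jun, 505 kb from Fggy, rose by 0.54, and Rpsa and Gmfb fell, at −0.41 and −0.27. The Rpsa call was lost without ko replicate 1 and under 20 M counts (−0.03), and the Gmfb call without ko replicate 3 or 5. Prss33, which starts 0.09 kb from Prss41 and encodes a related protease, fell by 1.05 ± 0.42 (adjusted p = 0.041). Its call was lost without any 1 of 9 libraries (all 5 of wild type replicates 1 to 5 and 4 of ko) and under 20 M counts (−0.18). The other 8 tested neighbours, among them Atp5a1, Epg5, Dctn1 and Slc7a1, were between −0.57 and 0.20 and not called.

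Comparing the wild-type add-back with ko, 6 of the 16 were called, 3 higher and 3 lower, against 45% of all tested genes. Under 20 M counts 11 of 15 tested neighbours were called, as were 9409 of all 14488 genes tested there. None was called in the mutant add-back against ko, where 0.322% of all tested genes were (1 at an unadjusted p under 0.05, 1 by DESeq2). Under 20 M counts 4 were called there, as were 3685 of the 14488 genes. Between the wild-type add-back and wild type 0 were called by edgeR (1.6% of all tested genes) and 0 by DESeq2, and 1 was under an unadjusted p of 0.05. Under 20 M counts 6 were called, as were 4786 of the 14488 genes.

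**Figure D4:**
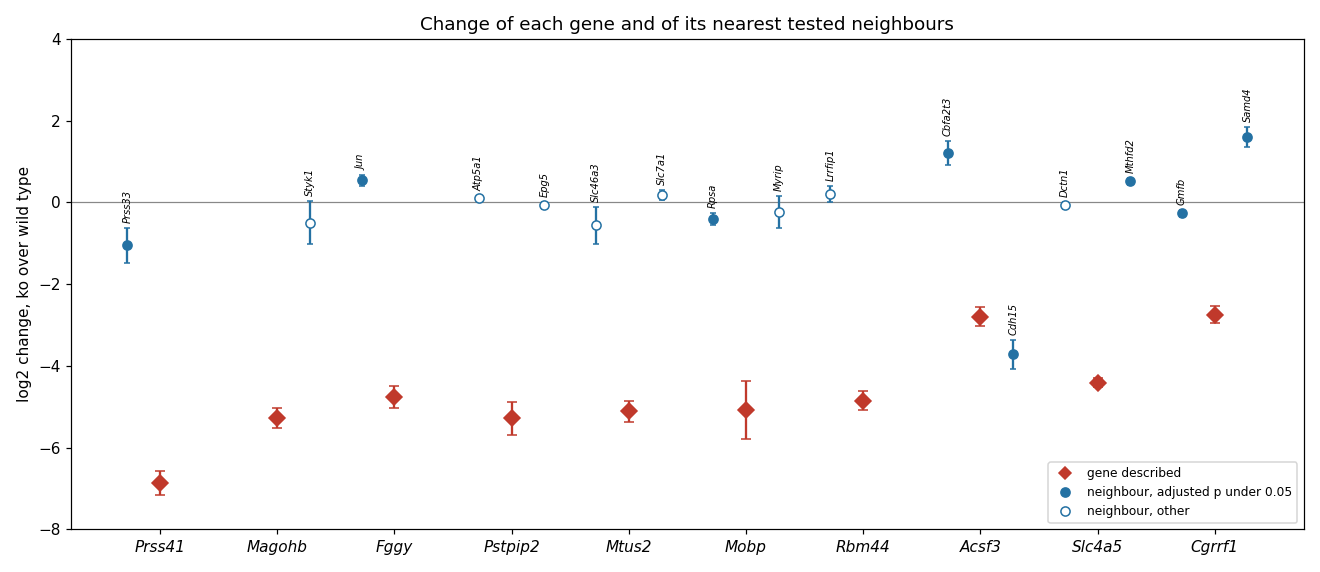
Log2 change in ko over wild type (vertical axis, with standard errors) of the 10 genes (diamonds) and of their 16 tested neighbours (circles, filled where the adjusted p was under 0.05). Cdh15 beside Acsf3 is at −3.72, and every other neighbour lies between −1.05 and 1.61.

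The families and pathways of the genes were read from 9 lists of 107 genes, of which 88 were tested. In ko against wild type 54 were called, 28 higher and 26 lower, against 55% of all tested genes, with a median log2 change of −0.03. The same 55%, with 3995 genes higher and 4197 lower, is the background for the ko counts of each list below. With the wild-type add-back set against ko 45 were called, 20 higher and 25 lower, against 45% of all tested genes. In the mutant add-back against ko edgeR called 0, while 17 were under an unadjusted p of 0.05, DESeq2 called 1 and the libraries under 20 M counts gave 22. Over all tested genes edgeR called 48 (0.322%), DESeq2 337, and the libraries under 20 M counts gave 3685 of 14488.

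Magoh, the copy of Magohb, stayed expressed. It had 83.9 ± 10.8 CPM in ko (SD, n = 5), 109.9 ± 11.3 CPM in the wild-type add-back (n = 3), 100.7 and 108.5 CPM in the mutant add-back and 100.8 ± 12.2 CPM in wild type (n = 8). It fell by 0.26 ± 0.10 in ko (edgeR adjusted p = 0.025), a call lost without ko replicate 1 or 2. Of the 15 genes of the exon junction complex and its partners 1 rose and 7 fell, each by less than 2-fold (median −0.20, from −0.54 to 0.23). The lowest of them, at −0.54, was far from the −5.28 of Magohb.

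Among 15 tryptase-like and prostasin-like protease genes, relatives of Prss41, 6 were tested, of which 3 rose and 2 fell. Prss22 went the same way as Prss41, at a low level. It had 0.0595 ± 0.0388 CPM in ko (SD, n = 5), from 6 counts over the group. The mutant add-back had 0.0574 and 0.114 CPM, from 3 counts. Levels were 1.10 ± 0.390 CPM in the wild-type add-back (n = 3) and 0.588 ± 0.246 CPM in wild type (n = 8). By means, both ko and mutant add-back were above the limit of the pattern counted earlier, so Prss22 did not meet it. Prss22 fell by 3.26 ± 0.47 in ko (edgeR adjusted p = 1.3e-05) and rose by 4.12 ± 0.53 in the wild-type add-back over ko (adjusted p = 5.2e-06). In the opposite direction, Tmprss2 rose in ko by 2.93 ± 0.41 (adjusted p = 7.7e-06; 1.27 under 20 M counts), Prss27 by 2.43 ± 0.50 (adjusted p = 0.00047) and St14, which encodes matriptase, by 1.15 ± 0.16 (adjusted p = 8.0e-06). Prss27 had few counts, with 39 over the 5 ko libraries (0.386 CPM) and 13 over the 8 wild type libraries (0.0713 CPM). It was not called in the wild-type add-back against ko (edgeR adjusted p = 0.22). The tested relatives of Prss41 thus went both ways, as did the tested genes at large.

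Of the 9 tested genes of the SLC4 list 6 rose and 1 fell in ko, while Slc4a5 itself was nearly absent. The list holds the anion and bicarbonate transporters and the adaptor gene Slc4a1ap. The gene that fell was Slc4a1ap, at −0.26 ± 0.07, and no transporter of the list was called lower. Slc4a9 rose by 1.47 ± 0.31 (edgeR adjusted p = 0.00069) and Slc4a1, the red cell anion exchanger gene, by 1.19 ± 0.25 (adjusted p = 0.00052). Slc4a1, Slc4a9 and Slc4a3 fell in the wild-type add-back relative to ko, at −1.77, −1.54 and −1.17. Leaving out replicate 2 of the wild-type add-back ended the Slc4a9 call.

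In mitochondrial fatty acid synthesis and lipoylation, the setting of Acsf3, 3 of 11 genes rose and 4 fell. Acsf2, a relative of Acsf3, rose by 1.21 ± 0.18 (edgeR adjusted p = 1.2e-05) and fell by 1.58 ± 0.25 in the wild-type add-back over ko. It had 61.9 ± 6.46 CPM in ko (SD, n = 5), 20.6 ± 2.52 CPM in the wild-type add-back (n = 3) and 26.5 ± 9.06 CPM in wild type (n = 8). The paralogues Acsf2 and Acsf3 therefore moved in opposite directions.

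Of 15 F-BAR genes, the family of Pstpip2, 7 rose and 5 fell in ko, none by 2-fold. Gas7, Srgap1 and Fes fell in the wild-type add-back relative to ko, at −1.87, −1.30 and −1.24 (edgeR adjusted p = 3.7e-07, 0.00017 and 0.0020). Of 12 microtubule plus-end genes 3 rose and 2 fell in ko, and Mapre3 and Clip2, whose products bind microtubule ends, fell in the wild-type add-back relative to ko, at −1.41 and −1.02 (adjusted p = 0.0015 and 3.2e-05). The directions of these named genes are opposite to those of Pstpip2 and Mtus2, but smaller changes in the lists went both ways. In the wild-type add-back against ko, 2 F-BAR genes were called higher and 7 lower. Of the plus-end genes 1 was called higher and 3 lower.

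Of 13 myelin and oligodendrocyte genes 7 were tested, and 2 rose in ko. Mag, a myelin glycoprotein gene at 0.654 ± 0.549 CPM in ko (n = 5) and 0.242 ± 0.0880 CPM in wild type (n = 8), rose by 1.50 ± 0.45 (edgeR adjusted p = 0.0091), a call lost without ko replicate 2. Mbp, the myelin basic protein gene, fell by 1.31 ± 0.47 in the wild-type add-back relative to ko (adjusted p = 0.029), lost without ko replicate 1 or 2 or any 1 of the 3 add-back libraries, and was at −0.41 under 20 M counts. None of the 7 fell in ko beside Mobp. Of 9 germ cell bridge and RNA-binding genes, the setting of Rbm44, 1 rose and 3 fell. The germ cell translation factor gene Dazl had 5.34 ± 2.04 CPM in ko (n = 5), 15.2 ± 1.08 CPM in the wild-type add-back (n = 3) and 17.9 ± 4.77 CPM in wild type (n = 8). It fell by 1.75 ± 0.23 in ko (adjusted p = 4.0e-06), and Rbm46 fell by 1.16 ± 0.33 in the wild-type add-back relative to ko (adjusted p = 0.0083). Of 4 tested carbohydrate kinase genes near Fggy in sequence, 2 rose and 2 fell in ko, each by less than 2-fold.

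The genes whose log2 CPM followed the mean of the 10 most closely over the 18 libraries were ranked among 13116 genes, as a description of libraries that share these groups. They were Zfp941 (r = 0.995), the lysosomal acid lipase gene Lipa (0.993), the piRNA pathway gene Tdrd12 (0.991), Dtd1 (0.991), the long noncoding RNA gene Platr14 (0.990), Fthl17f (0.990), the lysosomal peptidase gene Tpp1 (0.989) and Ccdc91 (0.988). Tdrd12 was the most nearly silenced of those with residual counts, with 1.28 ± 0.172 CPM in ko (SD, n = 5), 41.4 ± 0.319 CPM in the wild-type add-back (n = 3), 0.804 and 0.910 CPM in the mutant add-back and 38.8 ± 13.1 CPM in wild type (n = 8). Fthl17f, a ferritin-like gene, had 0 counts in all ko and mutant add-back libraries and 1.37 ± 0.384 CPM in wild type (n = 8). Against a floor of 3 counts over the group it was at least 48.1-fold lower in ko and at least 16.0-fold lower in the mutant add-back. Tpp1 kept more, with 10.9 ± 1.44 CPM in ko (n = 5), 77.6 ± 3.02 CPM in the wild-type add-back (n = 3) and 83.0 ± 8.66 CPM in wild type (n = 8).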

How the data were processed

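The deposited table holds raw gene counts, whole numbers of reads per gene with no normalization, for 18 RNA libraries. Per the labels' protocols, RNA was purified with RNeasy and libraries were made with the TruSeq stranded mRNA kit. Per the submitters' processing notes, bcl2fastq 2.17, STAR and the mouse build mm10 (GRCm38) were used. How reads were counted, and whether by strand, is not given in the sources used here. Exon lengths come from the deposited table, coordinates from RefSeq and GENCODE M21 (GRCm38), and promoter windows from RefSeq (GRCm38.p6).

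The 10 genes and all gene lists were chosen with earlier results of these data known. The genes named are these 10, Smarca5, their nearest neighbours, Magoh, list genes called and changed by at least 2-fold in ko against wild type or between the wild-type add-back and ko, and the 8 genes of at least 1 CPM in wild type whose profile correlated best. Genes without a name of their own were left out of the last group.

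Groups follow the labels. All comparisons came from 1 fit in edgeR 4.0.16 (R 4.3.3) which modelled a mean for each group after TMM scaling. Its robust, two-sided quasi-likelihood test was adjusted by Benjamini-Hochberg over the 14901 genes that passed filterByExpr with a count minimum of 10. Calls needed an adjusted p under 0.05. A planned test of how the 10 genes differed between wild-type add-back and wild type was dropped, since their choice used levels of both groups. CPM values use TMM-scaled library sizes, with a prior count of 2 before taking logs. Percentages of wild type pool counts over libraries, with 95% exact (Clopper-Pearson) intervals. The mean chi-square per gene between libraries of a group, where sampling noise alone gives about 1, was 1.48 to 2.55 within the low or middle totals of wild type and ko. It was 2.09 to 6.72 in the wild-type add-back, 14.0 in the mutant add-back, 15.9 to 40.8 among wild type replicates of high totals and 31.0 to 69.2 across sets. All exceeded sampling noise and no libraries were merged, but the lowest are close to technical repeats. Alternatives were DESeq2 1.42.0, its size factors, library size alone, no filter, each library left out, single library sets and the replicate number as a block. The fit was tested on simulated data.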

Additional observations from a re-analysis of the deposited data

How the results depend on the processing

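The direction of all 10 genes was the same under every alternative run when ko or the mutant add-back was compared with wild type. So it was when either was the baseline for the wild-type add-back. In the mutant add-back against ko it turned for Magohb, Mtus2, Prss41 and Slc4a5 in at least 1 setting, where their log2 changes over all libraries were smaller than the standard error. Of the recomputed values of the 10 genes, 25 moved beyond the spread between replicates or in sign when a library was left out and 16 under other settings. For the wild-type add-back over wild type some directions turned. In the libraries under 20 M counts Cgrrf1 was at 0.088, Fggy at 0.11 and Mobp at 0.42, and Prss41 (0.02) ranged from −0.061 to 0.13 without each library in turn. Calls of the 10 genes were not counted there, since both groups entered their choice. Over all genes that comparison gave 238 calls, and 481 by DESeq2, 4786 under 20 M counts, 1002 with the replicate block and 44 to 260 without each library. The mutant add-back against ko gave 48 calls, and 337 by DESeq2, 3685 under 20 M counts and 4 to 143 without each library. Of the list genes 0 were called there, and 1 by DESeq2, 22 under 20 M counts and 0 without each library. Neighbours called in the wild-type add-back against ko numbered 6, and 11 under 20 M counts. Over all genes that comparison gave 6701 calls, and 9409 under 20 M counts. The cause of these moves was not tested. The replicate block put Mobp in the wild-type add-back, relative to wild type, at −2.57 on the log2 scale, against −1.89 without it. Samples with the same number did not deviate together (r from −0.25 to 0.17 over 17 pairs, against −0.29 to 0.31 over 94 other pairs), so the number was not taken to pair them. Totals of 2 or 3 counts limit the precision for Prss41, Pstpip2 and Mobp in the mutant add-back.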
